A study of Mus musculus with 60 samples.

Results

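Solute carriers are membrane proteins that move ions, nutrients, neurotransmitters and metabolites across the cell surface and the membranes of organelles. The genes described here were those of the deposited gene table whose symbol, looked up from the Ensembl identifier, starts with Slc and a number. They were 144 of the 9066 genes, with 1733 of the 114691 exon rows. The authors kept the same number of genes for their networks after filters on exon connectivity and on counts, with a minimum average of 500. In the deposited table, however, only 5198 of the 9066 genes averaged at least 500. Shares of all genes thus refer to a preselected set, and these values do not settle how it was selected. Of the 144 genes, 21 belonged to Slc25, the family of the mitochondrial carriers (181 exon rows), and 123 to 37 other families (1552 exon rows). An average of at least 500 was reached by 18 of the Slc25 genes and 81 of the others. The symbol was the only criterion. It also takes in Slc4a1ap, Slc7a6os and Slc9a3r1, which are named after a carrier and are not carriers themselves. Within Slc25 it takes in Slc25a17, a carrier of peroxisomes, and Slc25a46, which sits in the outer mitochondrial membrane.

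The tissue was hand-dissected striatum of 60 HS-CC mice, an outbred stock made from 8 inbred strains, and polyA RNA of each mouse was sequenced in 1 library. The mice came from early generations of selective breeding for the response to haloperidol, an antipsychotic that blocks dopamine D2 receptors. The labels give each mouse a number, a sex and a catalepsy phenotype. There were 13 female and 17 male non-responders, and 15 female and 15 male responders. The labels name no treatment at the time of tissue collection.

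Most Slc25 proteins exchange metabolites across the inner mitochondrial membrane, and they supply the respiratory chain with ADP, phosphate and substrates. At the plasma membrane of the brain, other solute carriers clear glutamate and GABA from the synapse, set the chloride and calcium gradients of neurons and bring glucose, lactate and amino acids through the blood vessels. Others load synaptic vesicles or move zinc and sugar nucleotides into organelles. The vesicular and plasma membrane carriers that define glutamate, dopamine and acetylcholine neurons (Slc17a7, Slc17a6, Slc6a3, Slc18a3) are not among the 144 genes. The vesicular GABA carrier Slc32a1 and the ADP/ATP carrier Slc25a5 are not among them either.

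The deposited values corresponded to between 4913122 and 21872744 reads per mouse in the 9066 genes (median 14520042). For 17 mice, spread over phenotypes and sexes, the total was below 10000000 reads, and for the other 43 it was at least 12051239. Reads were also spread unevenly along transcripts in some libraries. This 3′ bias was measured as the slope of the log2 exon values from the first to the last exon row, relative to the mean of all mice, as a median over 2173 genes. It was 1.62 in mouse 63 (female responder), 0.963 in mouse 5 (female non-responder), 0.722 in mouse 4 (male responder) and 0.498 in mouse 62 (male non-responder). In the 17 mice below 10000000 reads it ran from -0.2845 (mouse 52) to -0.0118 (mouse 26). The 43 others ran from -0.158 (mouse 22) upward. The lowest values thus lay in the mice of low total, so relations to the bias also carry depth, and their parts were not separated. Of 12 marker genes of the medium spiny neuron, the main cell type of the striatum, 10 had a row. The summed value of these 10 genes ranged from 92020 to 200000 in non-responders and from 99890 to 173400 in responders. For cortical pyramidal neurons 2 of 7 markers had a row, for the thalamus 3 of 4, and for cholinergic neurons and the choroid plexus none of 4 and none of 9.

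Transcript levels are given first, as the deposited value per kilobase of exon averaged over the mice. The median was 195 over the Slc25 genes, 174 over the other solute carriers and 136 over all genes. In this bulk tissue, fewer cells of a type and less RNA per cell cannot be told apart. Among the mitochondrial carriers, Slc25a4 (ENSMUSG00000031633), which exchanges ADP for ATP and is also known as ANT1, had the highest level per kilobase at 4812. It was followed by the phosphate carrier Slc25a3 (896) and the oxoglutarate and malate carrier Slc25a11 (892), whose levels per kilobase were close to each other. Slc25a44, which carries branched-chain amino acids, stood at 690 per kilobase and the glutamate carrier Slc25a22 at 447. The lowest level per kilobase in the family was that of Slc25a20, the carnitine and acylcarnitine carrier of fatty acid oxidation, at 37.3.

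Outside the mitochondrial family, Slc1a2 (ENSMUSG00000005089), the main glutamate transporter of astrocytes, had a level of 7503 per kilobase, and its deposited value was the highest of all 9066 genes. The next were Slc22a17, a receptor for lipocalin 2, at 1893 per kilobase, the astrocyte glutamate transporter Slc1a3 at 1438, the potassium-dependent sodium/calcium exchanger Slc24a2 at 1427, and the potassium/chloride cotransporter Slc12a5 (KCC2) at 1348. Slc8a2, a sodium/calcium exchanger of neurons, stood at 1337 per kilobase. The vesicular amino acid transporter Slc6a17 followed at 956 per kilobase. Levels of Slc1a2 ran from 67500 to 138700 (median 96620) as deposited values in non-responders and from 48340 to 147400 (median 97590) in responders. Those of Slc25a4 ran from 9015 to 15790 (median 11020) in non-responders and from 9330 to 18230 (median 11000) in responders. For both genes the groups overlapped over most of their range, and the responder with the lowest Slc1a2 value and the highest Slc25a4 value was the same animal, mouse 63. The plot of levels per kilobase shows these 12 genes in every mouse.

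**Figure D1:**
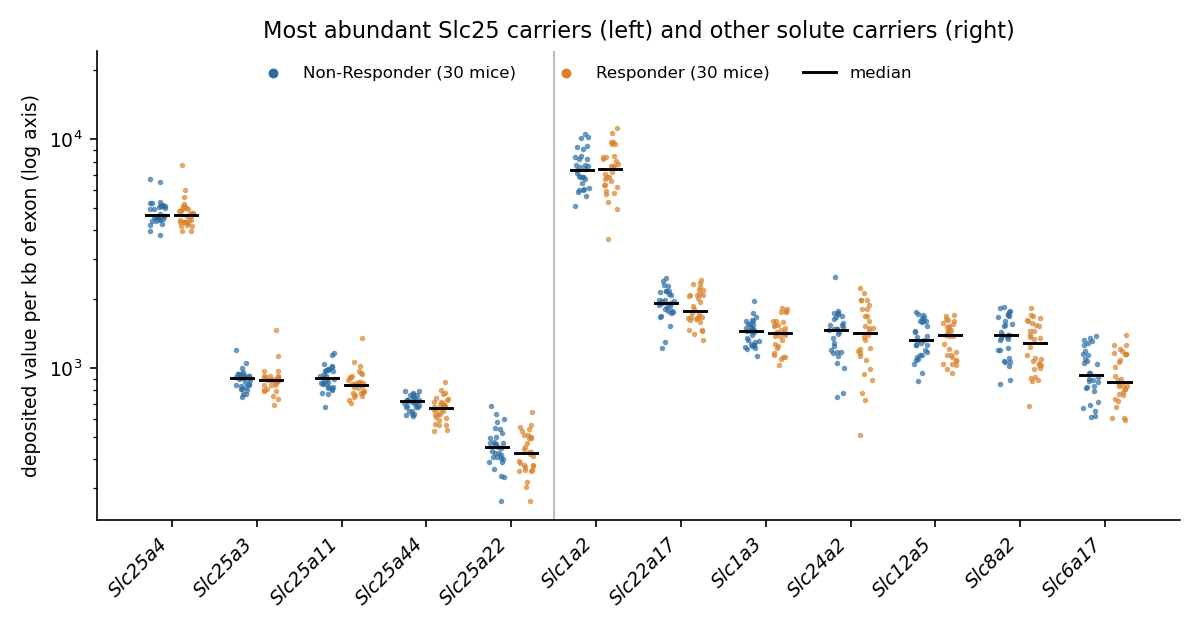
Deposited value per kilobase of exon (vertical log axis) of 5 Slc25 genes and 7 other solute carriers of high level. Each point is 1 mouse, blue for the 30 non-responders and orange for the 30 responders, and bars are group medians. Slc1a2 and Slc25a4 lie highest in their classes, and the phenotypes overlap for every gene.

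Below these leading genes, the families differed in their range of levels. The 16 genes of Slc35, a family that includes nucleotide sugar carriers of the Golgi and the endoplasmic reticulum, spanned 39.7 (Slc35d1) to 562 (Slc35f1) per kilobase. The 10 genes with a Slc7 symbol, most of them amino acid transporters, spanned 67.5 (Slc7a11, the cystine and glutamate antiporter) to 317 (Slc7a4) per kilobase. The 7 genes of Slc6 had a median of 400.5 per kilobase, which was the level of the creatine transporter Slc6a8. Zinc carriers were present with 5 genes of Slc30, a family that mostly exports zinc from the cytosol (51.4 to 378 per kilobase). The 5 genes of Slc39, a family that mostly imports it, spanned 63.6 to 680 per kilobase, highest for Slc39a10. The plasma membrane monocarboxylate carriers Slc16a1 (MCT1) and Slc16a7 (MCT2) stood at 197 and 37.2 per kilobase, the first above and the second below the median of the other solute carriers. Slc18a1, Slc2a2 and Slc6a20b averaged below a deposited value of 10 and were not tested; all Slc25 genes and 120 of the other genes passed this minimum.

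The spread of each gene between mice was described by its coefficient of variation, for genes averaging at least 50. Its median was 0.133 for Slc25 (0.0943 to 0.201), 0.156 for the others (0.0664 to 0.530) and 0.159 for all genes. Within Slc25 it was highest for Slc25a22 (0.201), Slc25a20 (0.186) and Slc25a25 (0.175), a calcium-regulated carrier of ATP-Mg and phosphate. It was lowest for Slc25a27 (0.0943), known as UCP4, for the ornithine carrier Slc25a15 (0.0959) and for the pyrimidine nucleotide carrier Slc25a36 (0.0968). No test compared the classes.

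Among the other solute carriers, the sodium/calcium exchanger Slc8a1 varied most, with a coefficient of variation of 0.530, followed by the sulfate transporter Slc26a1 (0.453), Slc7a11 (0.341), the proline transporter Slc6a7 (0.30) and the Golgi sodium/proton exchanger Slc9a7 (0.284). The steadiest included the zinc transporter Slc39a9 (0.0664), Slc6a8 (0.0836), the phosphate transporter Slc20a1 (0.0913) and Slc38a10 (0.0911). Values of Slc8a1 ran from 762 to 2765 (median 1779) in the 17 mice below 10000000 reads and from 78.2 to 1429 (median 830.2) in the 43 others. Slc26a1 likewise ran from 50.45 to 147.8 (median 99.96) in the 17 mice and from 24.28 to 64.02 (median 48.39) in the 43. For both genes the ranges overlapped while the medians lay more than 1.5 times apart. The parts of depth and of the 3′ bias in these levels were not tested. The mice of low total also carry neighbouring numbers in the labels, 41 to 56 and 26. On the opposite strand Slc26a1 shares 3.48% of its annotated exon bases with Idua, whose reads could have been counted with it because the counting is not stated to use strand. In all, 17 solute carriers share exon bases with another protein-coding gene. Among them are Slc7a10 (17.9%, with Lrp3), Slc7a4 (13.3%, with P2rx6) and Slc25a11 (8.92%, with Rnf167).

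The relation of each gene's level to the 3′ bias of the library was described for both classes. Pearson's r of log2(value + 1) with the bias, taken over mice, was 0.50 in the median of the 21 Slc25 genes, -0.19 in that of the 120 others and -0.0031 in that of all genes tested. It exceeded 0.5 for 10 Slc25 genes (47.6%), for 8 other solute carriers (6.67%) and for 22.3% of all genes. It lay below -0.5 for none of the Slc25 genes, for 22 others (18.3%) and for 23.9% of all genes. Without mouse 63 the medians were 0.45, -0.13 and 0.01, and r exceeded 0.5 for 6 Slc25 genes, 7 others and 15.2% of all genes. These are descriptions across genes measured in the same libraries, and no test was made of the difference between the classes. The histogram of r by class shows this shift.

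**Figure D2:**
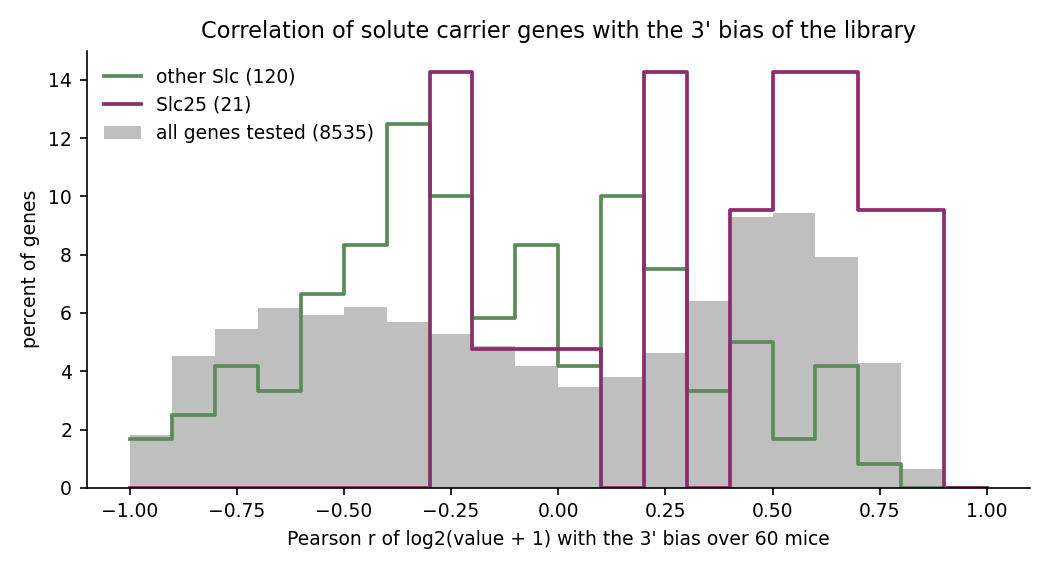
Pearson's r of each gene's log2(value + 1) with the 3′ bias of the library over the 60 mice (horizontal axis), as the percent of genes per bin of r (vertical axis). Green, 120 other solute carriers; purple, 21 Slc25 genes; grey, all 8535 genes tested. No Slc25 gene lies below -0.5, where 18.3% of the other solute carriers lie.

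The strongest positive values were those of Slc25a3 (r = 0.83), Slc25a4 (0.82) and the sugar transporter Slc50a1 (0.76). Strongly negative values included those of Slc9a7 (-0.95) and Slc8a1 (-0.88). In mouse 63 the deposited value of Slc25a4 was 18230, against 9015 to 15790 (median 10900) in the other 59 mice. That of Slc25a3 was 8172, against 3847 to 6681 (median 4956). Slc9a7 stood at 35.72 in mouse 63, against 90.63 to 701.3 (median 470.5) in the other mice. Mouse 63 thus lay outside the range of all other mice for these 3 genes. It was the highest of the 60 mice for 11 of the 21 Slc25 genes (52.4%), for 8 of the 123 other solute carriers (6.5%) and for 23.4% of all genes, and the lowest for 1 Slc25 gene (Slc25a42), for 27 others (22%) and for 21.4% of all genes.

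The exon rows of these genes showed where along the transcript the values departed. The first exon row of Slc25a3, counted from the 5′ end, stood at 1273 in mouse 63 against 1042 to 1505 in the other mice, while its last row stood at 3724 against 1239 to 2666. Slc25a4 behaved alike, with 1653 in the first of its 4 rows (1026 to 1880 in the others) and 7773 in the last (2653 to 5894). For Slc9a7 the first row was at 2 against 6 to 96, and the last at 20 against 42 to 342. Slc1a2 was at 54 in its first row, against 178 to 2349, and at 47544 in its last row, against 60695 to 131166. This last row of Slc1a2 holds 91.2% of the exon values of the gene on average, so its gene level was mostly a measure of its 3′ end. In Slc8a1 the first row holds 73.8% of the gene, and it was at 42 in mouse 63 against 87 to 2104 in the others.

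**Figure D3:**
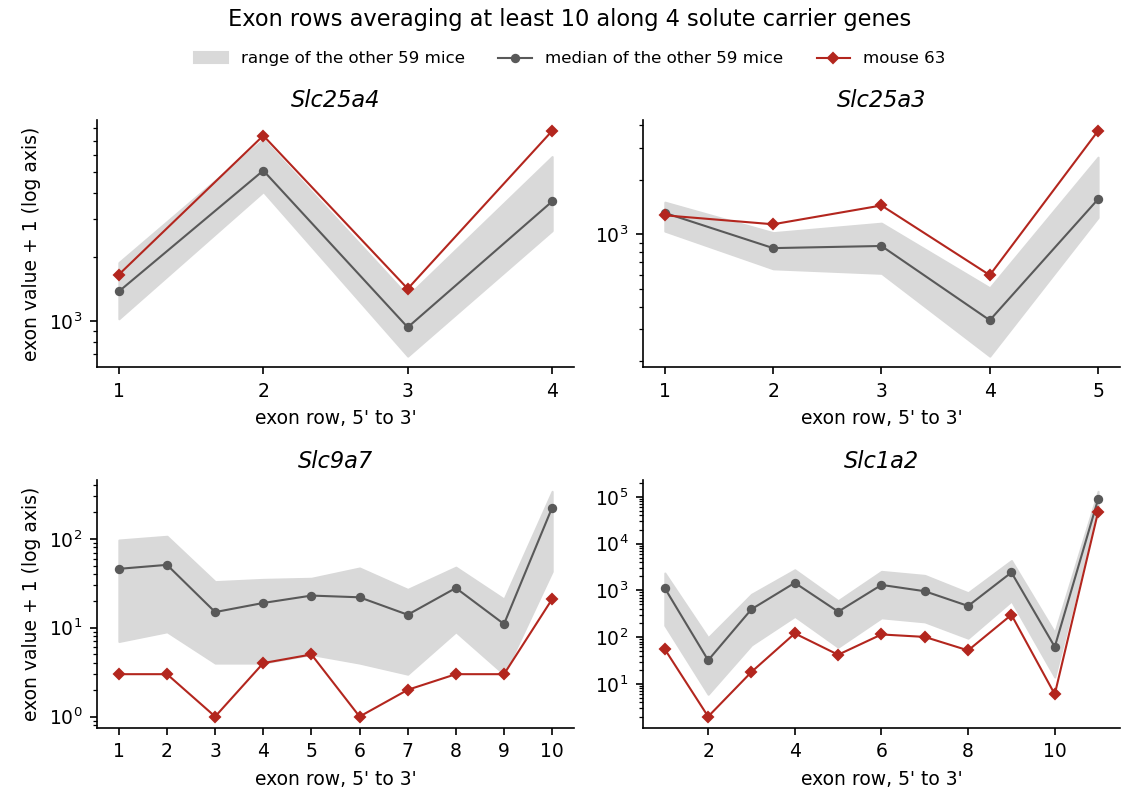
Exon values plus 1 (vertical log axis) of the exon rows averaging at least 10, ordered from 5′ to 3′ (horizontal axis), for Slc25a4, Slc25a3, Slc9a7 and Slc1a2. Red, mouse 63; grey line and band, median and range of the other 59 mice. Mouse 63 lies above the band from the second row on in Slc25a4 and Slc25a3, and below it at 7 of 10 rows of Slc9a7 and at all 11 rows of Slc1a2.

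For each mouse, the log2 deviation from the mean of all mice was averaged over the genes of a class. The Slc25 average ran from -0.13 to 0.34 on the log2 scale, with mouse 63 highest. The next 3 were mouse 5 (0.20), mouse 62 (0.17) and mouse 4 (0.15). In the same 4 mice the average over the other solute carriers was the lowest of all, at -0.30, -0.19, -0.18 and -0.18 in the order 63, 5, 62 and 4, while in the remaining mice it reached up to 0.14. Mice below 10000000 reads had a median Slc25 average of -0.08, against 0.02 in the others. By phenotype, the Slc25 average was 0.01 ± 0.07 (SD, n = 30) in non-responders and -0.01 ± 0.09 (SD, n = 30) in responders. For the other solute carriers it was 0.01 ± 0.08 and -0.01 ± 0.10. The groups overlapped, and the difference between them was smaller than the spread between mice in both classes. The plot of both averages per mouse shows the 4 mice apart from the rest.

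**Figure D4:**
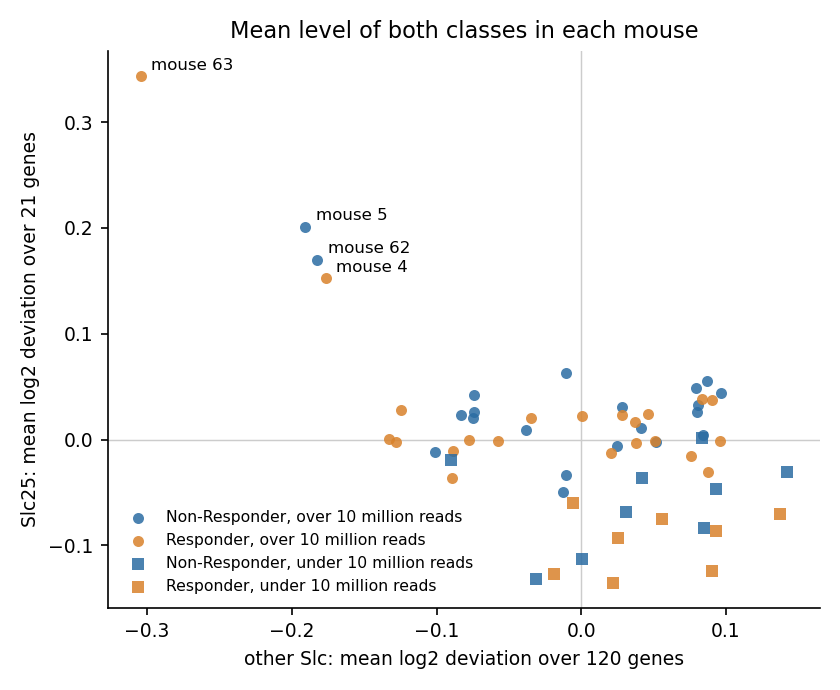
Mean log2 deviation over 120 other solute carriers (horizontal axis) and over 21 Slc25 genes (vertical axis), 1 point per mouse. Blue, non-responder; orange, responder; squares, mice below 10000000 reads. Mice 63, 5, 62 and 4, those of strongest 3′ bias, lie at the upper left, and the phenotypes are mixed over the rest.

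The first comparison of the design asked whether transporter levels differed between the catalepsy phenotypes. In limma with the trend option, with sex as a covariate, no solute carrier passed an adjusted p of 0.05 out of 141 tested, and 9 of 8535 genes (0.105%) did. At an unadjusted p under 0.05 there were 18 solute carriers, 9 higher and 9 lower in responders, while 6.49% of all genes passed. Of these carriers, 3 were among the 21 Slc25 genes (14.3%), all lower in responders, and 15 among the 120 others (12.5%), 9 higher and 6 lower. Over all genes 3.94% were higher and 2.55% lower at this level. Both classes thus had a larger share than all genes, and this difference was not tested. The median log2 difference, responder minus non-responder, was -0.01 for Slc25, -0.02 for the others and -0.0033 for all genes. It was negative for 13 of 21 Slc25 genes, for 74 of 120 others and for 52.1% of all genes. Without mouse 63 the median over Slc25 was -0.03, and again none was called. The quasi-likelihood test of edgeR on recovered reads called no solute carrier and 7 genes in all, and DESeq2 called 1 solute carrier among 23 genes. With the 3′ bias as a covariate, a setting listed as an alternative, 4 solute carriers were called, as were 0.715% of all genes.

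Of the genes with smaller p, Slc35a3 (ENSMUSG00000027957) came first. It carries UDP-N-acetylglucosamine into the Golgi. Its deposited value was from 301.2 to 598 (median 423.3) in non-responders and from 392.4 to 694.4 (median 497.5) in responders. The groups overlapped from 392.4 to 598, and the fitted difference was 0.23 on the log2 scale (SE 0.06, adjusted p = 0.0985 in limma). Within sexes the difference was 0.15 (SE 0.08) in females and 0.29 (SE 0.08) in males. With the 3′ bias as a covariate it was 0.23 with an adjusted p of 0.0434 in limma.

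Slc1a4 (ENSMUSG00000020142), a transporter of serine, alanine and other neutral amino acids, was lower in responders. Values were from 873.6 to 1575 (median 1343) in non-responders and from 929.9 to 1412 (median 1200) in responders. All responders lay within the range of the non-responders, and the fitted difference was -0.16 (SE 0.04, adjusted p = 0.113 in limma). It was -0.17 in females and -0.15 in males. DESeq2 on recovered reads gave -0.16 with an adjusted p of 0.0227, and limma with the 3′ bias as a covariate an adjusted p of 0.0477.

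Other carriers of amino acids also had an unadjusted p under 0.05. Slc38a3, a glutamine transporter of astrocytes, had values from 711.8 to 1332 (median 961.6) in non-responders and from 670.4 to 1185 (median 875.5) in responders. The groups overlapped and the log2 difference was -0.16 (SE 0.06, adjusted p = 0.329 in limma). With the 3′ bias as a covariate it was -0.19 (adjusted p = 0.0477 in limma). Slc38a9, a lysosomal arginine sensor, had values from 86.93 to 249.1 (median 163.8) in non-responders and from 97.91 to 260.2 (median 188.6) in responders. Its log2 difference was 0.19 (adjusted p = 0.574 in limma), and 0.23 with an adjusted p of 0.0219 in limma with the 3′ bias as a covariate. Its r with the bias was -0.68. Slc7a1, a transporter of cationic amino acids, differed by 0.18 on the log2 scale (unadjusted limma p = 0.0463).

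Among carriers of sugars, choline and ions, the neuronal glucose transporter Slc2a3 (GLUT3) ran from 1976 to 3726 (median 3086) in non-responders and from 1665 to 3364 (median 2507) in responders. The ranges overlapped and the log2 difference was -0.19 (SE 0.07, adjusted p = 0.435 in limma). For Slc10a7, a member of the bile acid transporter family, values were from 82.3 to 142.5 (median 110.2) in non-responders and from 92.9 to 173.6 (median 125.1) in responders, with a log2 difference of 0.19 (SE 0.05, adjusted p = 0.171 in limma). Slc41a3, of a family of magnesium transporters, had low values, from 26.84 to 88.44 (median 57.54) and from 38.13 to 106.5 (median 75.58), and a log2 difference of 0.28 (SE 0.10, adjusted p = 0.363 in limma). For each of these genes the groups overlapped. Both members of the choline transporter-like family with a row had higher fitted levels in responders, Slc44a5 by 0.17 (unadjusted limma p = 0.0144) and Slc44a1 by 0.10 (unadjusted limma p = 0.0147). For Slc16a1 the log2 difference was 0.13 (unadjusted limma p = 0.0197).

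In the mitochondrial family the smallest p belonged to Slc25a37, or mitoferrin 1, which imports iron. Its value ran from 630.4 to 1068 (median 834) in non-responders and from 609.8 to 956.7 (median 774.5) in responders. The groups overlapped and the log2 difference was -0.13 (SE 0.05, adjusted p = 0.419 in limma). Slc25a42, which carries coenzyme A, ran from 541 to 709.9 (median 616) in non-responders and from 456.7 to 740.5 (median 574.2) in responders, with a log2 difference of -0.10 (SE 0.04, adjusted p = 0.435 in limma). Slc25a44 ran from 2215 to 2850 (median 2566) and from 1914 to 3130 (median 2397), with a log2 difference of -0.09 (SE 0.04, adjusted p = 0.579 in limma). For the last of these genes the responders spanned a wider range than the non-responders on both sides. Slc25a11 (-0.08, unadjusted limma p = 0.104) and Slc25a15 (-0.06, unadjusted limma p = 0.12) followed.

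**Figure D5:**
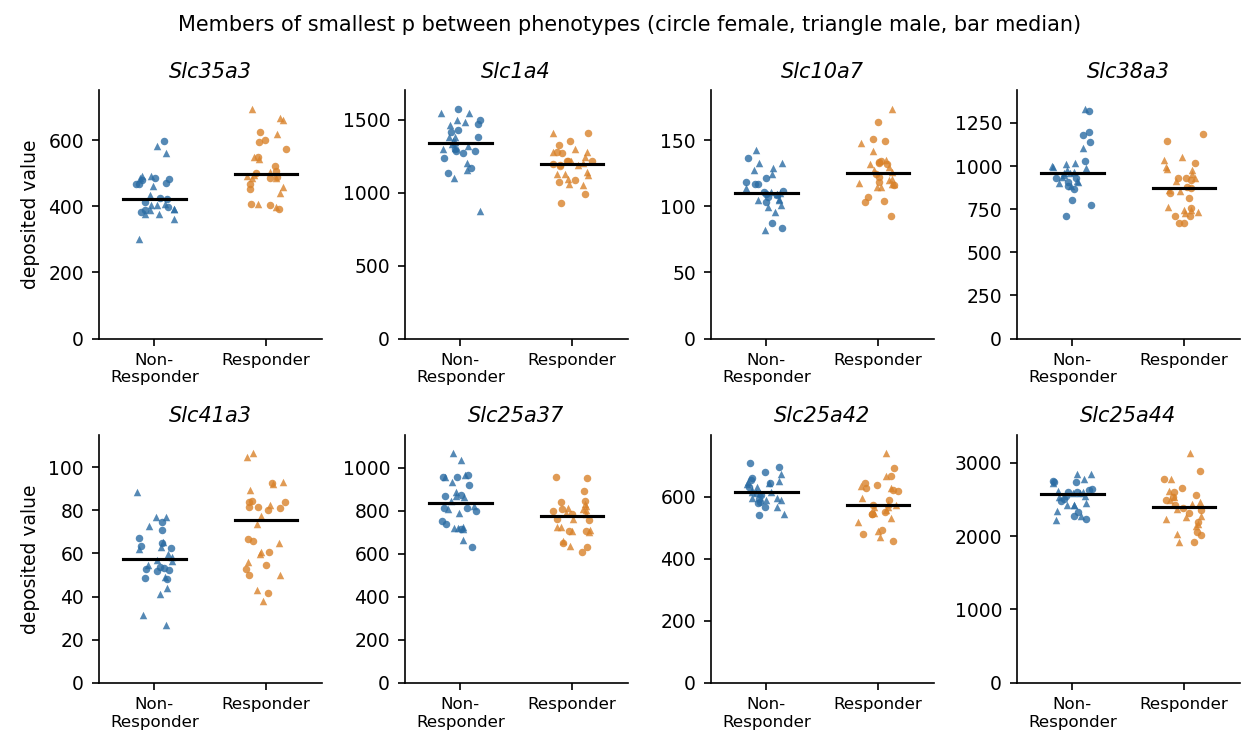
Deposited gene value (vertical axis, from 0) in each mouse by phenotype for the 5 other solute carriers and the 3 Slc25 genes of smallest p. Blue, 30 non-responders; orange, 30 responders; circles, females; triangles, males; bars, medians. The groups overlap for all 8 genes, and none passed an adjusted p of 0.05 in limma.

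Other carriers of known roles in brain had the following fitted differences. The log2 difference was -0.02 for Slc12a5, 0.03 for the neuronal glutamate transporter Slc1a1, -0.03 for Slc25a4, -0.01 for Slc25a3, -0.04 for the aspartate and glutamate carrier Slc25a12, -0.08 for Slc25a22 and -0.05 for Slc3a2, the heavy chain of several amino acid transporters. For Slc8a2 it was -0.15 (unadjusted limma p = 0.0911). Slc8a1, whose values spread most, had a difference of -0.17 with an SE of 0.24, larger than the difference itself. Of the exon bases of Slc1a1, 31.9% lie opposite to another gene, 4430402I18Rik, so its level may include reads of that gene.

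Other genes of mitochondrial energy supply were set beside the carriers. The respiratory chain and the ATP synthase were represented by 71 genes, of which 1 (Cox7a2, named for its call) was called by phenotype and 4 had an unadjusted p under 0.05, with a median log2 difference of -0.02. Of 29 mitochondrial transport proteins with other symbols none was called, and 2 had an unadjusted p under 0.05. None of 9 cation pumps of the plasma membrane was called and none had an unadjusted p under 0.05. Over all genes tested, 0.105% were called in limma and 6.49% had an unadjusted p under 0.05. The latter share was 5.63% in the respiratory chain and 6.9% in the 29 transport proteins, both near that of all genes. Over mice, r with the 3′ bias exceeded 0.5 for 64 of the 71 respiratory chain genes, beside 10 of the 21 Slc25 genes. It did so for 12 of the 29 other mitochondrial transport proteins (median r 0.425, none below -0.5), a share near that of Slc25. For the cation pumps it exceeded 0.5 in 1 of 9. Positive r with the bias was thus not particular to Slc25 among these mitochondrial genes. The differences between the lists were not tested.

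Sex and its interaction with phenotype were the other comparisons of the design. Between males and females no solute carrier was called in limma, against 3 genes of 8535 (0.0351%; Kdm6a, Kdm5c and Ddx3x, all on the X chromosome). An unadjusted p under 0.05 was found for 1 of 141, lower in males, against 2.04% of all genes (1.24% lower in males). This gene was Slc25a25, with values from 920.8 to 1861 (median 1302) in females and from 954.2 to 1932 (median 1147) in males. The ranges overlapped nearly in full, and the log2 difference, male minus female, was -0.16 (SE 0.06, unadjusted limma p = 0.00858). The next by p were Slc12a9 (0.08), Slc5a12 (0.43, at a mean value of 11.0), the fatty acid transporter Slc27a4 (-0.10) and the inositol transporter Slc2a13 (-0.10). The interaction of phenotype and sex was called for no gene in limma (0%), and an unadjusted p under 0.05 was found for no solute carrier and for 0.562% of all genes. Its smallest p was that of Slc7a2, a transporter of cationic amino acids (log2 difference of differences -0.27, unadjusted limma p = 0.0648), and those of Slc25a17, Slc22a8 and Slc4a3 were among the next. In edgeR no solute carrier was called for sex or the interaction, with 1 and 0 at an unadjusted p under 0.05. Without mouse 63, limma again called none of them, and an unadjusted p under 0.05 was found for 2 solute carriers and 307 genes by sex, and for 4 solute carriers and 74 genes by the interaction.

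Exon usage, the level of each exon row relative to the other rows of its gene, was compared between the phenotypes with diffSplice of limma. No row of 123 in Slc25 genes and 1 row of 950 in other solute carriers passed an adjusted p of 0.05, as did 88 of 66690 rows in all (0.132%). At an unadjusted p under 0.05 there were 2 Slc25 rows (in Slc25a16 and Slc25a25) and 17 other rows, while 2.5% of all rows passed. The called row belongs to Slc44a1 (ENSMUSG00000028412), a choline transporter on chromosome 4. It starts at 53494336 (mm9). Its value was low, from 7 to 22 (median 16) in non-responders and from 2 to 24 (median 13) in responders, and the non-responders lay within the range of the responders. Its usage differed by -0.39 on the log2 scale (SE 0.09, adjusted p = 0.0338 in limma), beside a gene level that was higher in responders by 0.10. Without mouse 63 the adjusted limma p was 0.0572, without the 4 mice of strongest 3′ bias 0.0549, and in a fit of each row against the sum of the other rows 0.524. The rows of next smaller p, in Slc13a5, Slc7a8, Slc25a16 and Slc3a2, had adjusted limma p of at least 0.712.

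Correlations between genes over the 60 mice were described for pairs within and between the classes. The median Pearson's r was 0.12 over the 210 pairs within Slc25, 0.06 over the 7503 pairs of other solute carriers, -0.05 over the 2583 pairs between the classes and -0.0044 over all pairs of genes. With respiratory chain genes the Slc25 genes had a median r of 0.40 and the other solute carriers one of -0.23. With the levels on the log2(value + 1) scale and the 3′ bias regressed out of them, the medians were -0.0066 within Slc25, 0.06 within the others, -0.0052 between the classes 0.07 between Slc25 and the respiratory chain and -0.15 between the other solute carriers and the respiratory chain. The median within the other solute carriers was thus nearly the same, while the others moved toward 0. Jackknife standard errors over mice were 0.05, 0.01 and 0.03 for the first 3 medians.

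Single pairs were of 2 kinds, those that followed the bias and those that did not. They are the closest and the most opposed partner of a named gene among the solute carriers and were chosen for their r, so no p is given. Slc25a4 and Slc25a3 had r = 0.78 (Spearman's rho 0.49), 0.38 without the 4 mice of strongest bias and 0.14 with the bias regressed out. Slc25a4 and Slc9a7 had r = -0.80 (rho -0.60), and -0.23 with the bias regressed out. Slc25a3 and Slc25a11 kept more of their relation, from 0.83 (rho 0.72) to 0.57. In the mice below 10000000 reads the first of these pairs had r = 0.29 and the second r = 0.18.

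By contrast, Slc25a12, which supplies aspartate and takes part in the malate-aspartate shuttle of neurons, had r = 0.88 with Slc12a5 (rho 0.86), and 0.88 with the bias regressed out. Slc25a22 had r = 0.87 with Slc45a1, a sugar transporter (rho 0.88), and r = 0.80 with Slc3a2 (rho 0.79). The chloride and calcium transporters Slc12a5 and Slc8a2 had r = 0.90 (rho 0.89), 0.92 above and 0.81 below 10000000 reads. Slc6a17 and the vitamin C transporter Slc23a2 had r = 0.90 (rho 0.91). These pairs stayed above 0.74 in both depth ranges. Negative correlations linked other pairs. The value of r was -0.65 for Slc12a5 and the astrocyte transporter Slc1a3 (rho -0.62), -0.71 for Slc1a1 and the small neutral amino acid transporter Slc7a10 (rho -0.73), and -0.61 for Slc25a22 and the zinc transporter Slc39a12 (rho -0.60). Regressing out the bias left the same 3 values at -0.63, -0.70 and -0.62. The levels of Slc1a1 and Slc7a10 may each include reads of an overlapping gene.

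In networks with r raised to the power of 6, the connectivity of a gene was ranked among all genes. In the coexpression network the median percentile was 48.4 for Slc25 and 38.1 for the other solute carriers, against 95.3 for the respiratory chain. The order of the 2 classes turned without mouse 63 (37.5 for Slc25 and 42.4 for the others), without the 4 mice of strongest 3′ bias (21.5 and 48.6), with the bias regressed out (33.1 and 54) and with Spearman's correlation (37.1 and 45.2). The highest Slc25 genes were Slc25a4 (95.8, and 89.8 without mouse 63), the pyrimidine nucleotide carrier Slc25a33 (79.3), mitoferrin 2, Slc25a28 (76.4), Slc25a3 (74.9) and Slc25a12 (65.8). Among the others the highest included Slc9a7 (97.6), the sodium-dependent bicarbonate and chloride exchanger Slc4a8 (92.8), Slc7a14 (90.6) and Slc6a17 (90). In the cosplicing network, built from the cosine distances between exon profiles, the median percentile was 55.7 for Slc25 and 63.8 for the others. In the CoSplicEx network, built from Canberra distances, it was 40.4 and 59.9. The top 10% held 1 (Slc25a4), 1 (Slc25a44) and 0 of the Slc25 genes in the 3 networks, and 4 (3.25%), 13 (10.6%) and 19 (15.4%) of the others. Without mouse 63 no Slc25 gene was in the top 10% of the coexpression or the cosplicing network, which held 4 and 18 of the others, and the cosplicing medians were 40.3 for Slc25 and 62 for the others.

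Transporters were finally compared with the mean z score of markers of a cell class in which they are known, over the 60 mice, in 11 pairs. They need not be confined to that class. Permutation tests with 100000 resamples were used, for which 1e-05 is the smallest p, with Benjamini-Hochberg adjustment over the 11 pairs. By r 8 pairs passed an adjusted p of 0.05, and by rho 6. Slc1a3 followed 11 astrocyte markers most closely (r = 0.82, rho 0.83, both permutation p = 1e-05, adjusted p = 2.75e-05 and 3.67e-05). The value was 0.80 without the 2 mice farthest from the median score, 0.82 above and 0.61 below 10000000 reads. Slc38a3 had r = 0.56 with the same markers (rho 0.52, permutation p = 1e-05, adjusted p = 2.75e-05 and 3.67e-05), 0.56 without the 2 farthest mice, 0.54 above and 0.56 below 10000000 reads, and 0.46 with the 3′ bias regressed out. Slc1a2 had r = 0.35 (rho 0.44, permutation p = 0.00593 and 0.00039, adjusted p = 0.00932 and 0.000858). It was 0.42 without the 2 farthest mice, 0.41 above and 0.54 below 10000000 reads, 0.47 without mouse 63 and 0.74 with the 3′ bias regressed out of both measures. In the mice below 10000000 reads, rho was 0.42 for Slc1a2 and 0.37 for Slc38a3 (permutation p = 0.0941 and 0.148). Without the 2 farthest of these mice r was 0.28 and 0.42 (permutation p = 0.319 and 0.12). Within the mice of low total both relations thus rested partly on these 2. The bicarbonate cotransporter Slc4a4 had r = 0.01 (rho 0.04, permutation p = 0.934 and 0.762), and 0.26 with the bias regressed out (permutation adjusted p = 0.0516).

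Among transporters of myelinating cells, Slc44a1 had r = 0.63 with 9 oligodendrocyte markers (rho 0.62, permutation p = 1e-05, adjusted p = 2.75e-05 and 3.67e-05), 0.62 without the 2 farthest mice, 0.61 above and 0.70 below 10000000 reads. For the chloride cotransporter Slc12a2 (NKCC1) r was 0.40 (rho 0.36, permutation p = 0.00139 and 0.00469, adjusted p = 0.00306 and 0.0086), 0.39 without the 2 farthest mice, 0.41 above and 0.72 below 10000000 reads, and 0.60 with the 3′ bias regressed out. The summed value of the oligodendrocyte markers ran from 96010 to 258000 in non-responders (median 153600) and from 101200 to 277200 in responders (median 160000), with groups that overlapped. Its part in the fitted difference of Slc44a1 between phenotypes was not tested.

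Only 5 of 14 endothelial markers had a row. The organic anion transporter Slc22a8 had r = 0.60 with them (rho 0.46, permutation p = 1e-05 and 0.00024, adjusted p = 2.75e-05 and 0.00066), 0.58 without the 2 farthest mice and 0.59 above 10000000 reads. Below 10000000 reads it was 0.63 (rho 0.39, permutation p = 0.00768 and 0.121), and 0.17 without the 2 farthest of these mice, so within them the relation rested on these 2. The glucose transporter Slc2a1 of the blood-brain barrier had r = 0.36 (rho 0.25, permutation p = 0.00473 and 0.0562, adjusted p = 0.00867 and 0.0884). It was 0.30 without the 2 farthest mice, 0.30 with the 3′ bias regressed out, 0.51 above 10000000 reads and -0.17 below, so the relation did not hold within the 17 mice. For Slc16a1 r was 0.32 (rho 0.22, permutation p = 0.0139 and 0.0867, adjusted p = 0.0191 and 0.119), 0.29 without the 2 farthest mice, 0.43 above and 0.15 below 10000000 reads. With the 3′ bias regressed out it was 0.26 (permutation adjusted p = 0.0516). For the amino acid transporter Slc7a5 it was 0.07 (rho 0.06, permutation p = 0.62 and 0.657). The marker sums of astrocytes (medians 53730 in non-responders and 52650 in responders), endothelium (3739 and 3997) and microglia (6077 and 6285) overlapped between phenotypes.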

How the data were processed

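Striatal polyA RNA of 60 mice was sequenced by the authors, who aligned the reads with Bowtie 0.12.7 to NCBI m37 (mm9) and counted them on Ensembl 59 union exons. The submitters' processing notes also name CASAVA, FastQC, R 3.0.2 and edgeR 3.4.2. Values of the deposited gene table are a signal, reads per gene times an upper quartile factor, and dividing by the step of each library gave back whole reads for 100% of them within 0.1 read. On these reads edgeR called 7 genes by phenotype. Values of the deposited exon table are a score, reads per exon scaled likewise and rounded. Each mouse was 1 library, so p-values rest on the spread between mice. The 4913122 to 21872744 recovered reads count only those of the 9066 genes, and the paper states a larger approximate number of reads per sample.

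Symbols (for 97.7% of identifiers), strand and exon lengths came from GENCODE M21 (GRCm38), whereas exon starts are given in mm9. Genes or exon rows averaging at least 10 were tested on log2(value + 1) with limma 3.58.1 in R 4.3.3 with the trend option, phenotype and sex as terms, and two-sided Benjamini-Hochberg adjustment over all that were tested. This scale understates the change of low genes. Alternatives used edgeR 4.0.16, DESeq2 1.42.0, other filters, pseudocounts, scalings, covariates and sets of mice. The fits without the 4 mice of strongest 3′ bias, the correlations with this bias regressed out and the fit of an exon row against the sum of the others were chosen after seeing the data. In simulated data, 200 genes were given a log2 change of 0.5. Values were drawn independently for each gene or exon row, with the same dispersion for all and without a 3′ bias. The real genes differ in spread and share that bias, so recovery and false calls in them can differ from the simulated ones. At this change limma recovered 100% with 10 false calls among 8535 genes. The fitted phenotype differences ran from -0.13 to 0.0888 in Slc25 and from -0.189 to 0.283 in the other solute carriers. Recovery at changes smaller than 0.5 was not tested. For exon rows, diffSplice recovered 90% of 200 changed rows with 74 false calls in other genes among 65132, and the fit against the sum 96.5% with 25. In unchanged rows of changed genes they made 13 and 282 further calls.

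Correlations and figures used Python 3.11.15, numpy 2.4.6, pandas 2.3.3, scipy 1.17.1 and matplotlib 3.10.9. Named genes were those of highest level, smallest p, most extreme variation or highest connectivity per class, the members of marker pairs and genes of known roles in brain; Slc50a1, Slc7a1, Cox7a2, the 3 sex genes and those named with family ranges were added after their values were seen. The genes and lists were chosen with earlier results of these data known. Results of some genes named by this rule are not reported here.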

Additional observations from a re-analysis of the deposited data

How the results depend on the processing

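For the solute carriers, the count of 0 called by phenotype became 4 with the 3′ bias as a covariate and 1 with DESeq2, and stayed 0 in the other settings. Over all genes the 9 calls by phenotype became 3 without the mice below 10000000 reads, 0 in these mice alone, 5 with genes averaging at least 500, 20 with depth as a covariate, 61 with the 3′ bias as a covariate and 23 with DESeq2. The 3 calls by sex became 0 without the mice below 10000000 reads. The single solute carrier exon row became 0 in the fit against the sum of the other rows, with a pseudocount of 10, with rows averaging at least 50 and without mouse 63, and 2 with the 3′ bias as a covariate. The minimum mean of 50 left the row of Slc44a1 untested, since it averaged 15.5 in non-responders and 12.67 in responders. Without the 4 mice of strongest 3′ bias 1 row was called, which was not that of Slc44a1. The 88 exon rows over all genes became 15, 57 and 19 in the first 3 of these settings, 176 with the covariate and 140 without the 4 mice of strongest 3′ bias.

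The median r within Slc25, 0.12, was 0.0529 without the 4 mice of strongest 3′ bias, 0.17 with TMM-scaled CPM and -0.0066 with the bias regressed out. Within the other solute carriers, 0.06 became 0.081 without the mice below 10000000 reads and 0.16 with genes averaging at least 500. Between the classes, -0.05 became -0.0158 without the 4 mice, -0.0090 with genes averaging at least 500 and -0.0052 with the bias regressed out. In the mice below 10000000 reads alone the direction turned for Slc8a1 (0.0759) and Slc12a5 (0.0225) by phenotype, and for Slc2a1 (-0.17) and Slc7a5 (-0.20) with endothelial markers. The causes of these changes were not tested. Of 366 values of 34 named gene results under alternatives, 359 kept their direction and their side of the threshold. Of 93 values of the main counts, medians and tests, 66 did so or stayed within 1.5 times of the count, 8 moved, 11 were weaker and 8 stronger. No paired analysis was possible because each mouse has a number of its own. Depth limits the lowest genes, such as Slc41a3 and the exon row of Slc44a1.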
